A study of Mus musculus with 6 samples.

Results

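The p53 pathway was followed through 10 genes. They are Trp53, which encodes p53, its feedback and arrest targets Mdm2, Ccng1, Phlda3 and Zmat3, the genes that promote cell death Bax, Bbc3 and Pmaip1, and the genes that oppose it, Bcl2 and Mcl1. Every probe that the platform annotation gives 1 of these symbols was taken. There were 16 such probes among the 45281 on the array, and they covered 8 of the 10 genes. No probe under the symbols Trp53 and Bax was at hand, so these genes were not analysed here. Of the 16 probes, 15 were detected on at least 3 of the 6 arrays and entered the test, and 1 probe of Bcl2 did not.

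RNA came from 3 samples of a mouse cell line labelled anterior and 3 of a line labelled posterior, with 1 bead array of 1 colour per sample. Both lines are labelled as E10.5 limb mesenchyme that expresses a temperature-sensitive SV40 T antigen, so both groups carry it. Strain, culture temperature and the promoter that drives the antigen were not given in the sources used here. Each group is described as 1 line, so the position in the limb and the history of the line cannot be told apart, and no label states that a line's samples were grown separately. The p-values thus reflect sample-to-sample spread, possibly technical.

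Between 16052 and 18657 probes were detected per array, at a detection p-value under 0.05. The library labelled anterior replicate 2 stood apart for some genes. Of 9908 tested genes, 616 spanned more than 1 log2 unit within the anterior group, and 498 of these were lowest on that array. The limb mesenchyme label was only partly borne out. Of 13 listed limb mesenchyme markers 6 were tested, all 6 were detected on every posterior array and 3 on every anterior array, and no anterior array detected Pdgfra or Twist2. All 10 listed markers of pluripotent cells were tested and lower in posterior, though 1 entered the test through the anterior arrays alone. Their mean level lay between 10.82 and 10.90 (log2 intensity) on the anterior arrays and between 7.59 and 7.88 on the posterior ones. The groups are therefore called by their labels.

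As background, p53 is a transcription factor that is activated by DNA damage and other stress. Its targets fall into several arms. One arm halts the cell cycle or limits p53 itself, as MDM2, the ubiquitin ligase that marks p53 for destruction, does. Another arm starts cell death through the BCL2 family, in which the BH3-only proteins PUMA (from Bbc3) and NOXA (from Pmaip1) disarm protectors such as BCL2 and MCL1, so that BAX can open the outer mitochondrial membrane. The large T antigen of SV40 binds p53 and blocks its activity, and in its temperature-sensitive form it does so only at the permissive temperature.

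Among the members, 3 of the 4 feedback and arrest targets were higher in posterior, and the cell death genes and inhibitors differed in direction or did not pass. Ccng1, Phlda3 and Mdm2 rose on every probe, by 1.75-fold to 5.46-fold. Pmaip1, which 1 of 3 posterior arrays detected, fell by 1.01 (log2) after background correction and fell by 0.51 in the authors' deposited log2 values. Bcl2 was detected in posterior alone, and Bbc3, Mcl1 and Zmat3 did not pass. Of the 15 tested member probes 9 passed as higher and 1 as lower in the limma fit, at an adjusted p under 0.05. Of the 9, 2 were Bcl2 probes that met the detection filter through the posterior arrays alone and so had little room to come out lower. In the same fit 42.6% of all tested probes passed, 21.2% as higher and 21.4% as lower. By gene, with the brightest tested probe standing for each, 4 members passed as higher and 1 as lower, leaving 3 that did not, with Bcl2 again among the 4, against 47.4% of all genes, 25.9% higher and 21.5% lower. On 10 of the 15 probes every posterior array lay above every anterior one and on 2 below, as did 26.1% and 27.9% of all tested probes. For the genes these counts were 5 and 1 of 8, against 31.4% and 26.9% of all genes. Those 10 probes include the 2 of Bcl2, and those 5 genes include Bcl2, which had little room to come out lower. The median difference was 1.27 (log2) over the 4 feedback and arrest genes and 0.22 over the 4 cell death genes and inhibitors, against 0.03 over all tested genes. The difference between these medians was not tested. In bulk RNA a change in the number of cells that express a gene and a change in RNA per cell cannot be told apart. In these arrays the 10 pluripotency markers fell together, as given above, and 5 of the 6 tested limb mesenchyme markers passed as higher, 2 of them through the posterior arrays alone. The mean level of the limb mesenchyme markers lay between 4.79 and 4.97 on the anterior arrays and between 5.94 and 6.55 on the posterior ones. The anterior means were near the lowest detected signals of those arrays, 4.76 to 4.91. Of 7 listed epithelial markers 4 were tested, and Krt8, Krt18 and Krt19 passed as higher, Krt19 with no anterior array detecting it, while Cdh1 had a difference of -0.62 (log2) and did not pass. The mean level of the epithelial markers lay between 6.76 and 7.05 in anterior and between 9.07 and 9.98 in posterior. Of 8 listed endothelial and blood markers 2 were tested, and 1 passed as lower (log2 -3.02) and 1 did not pass (log2 0.21). The part of these markers in the p53 and BCL2 family differences was not tested.

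**Figure D1:**
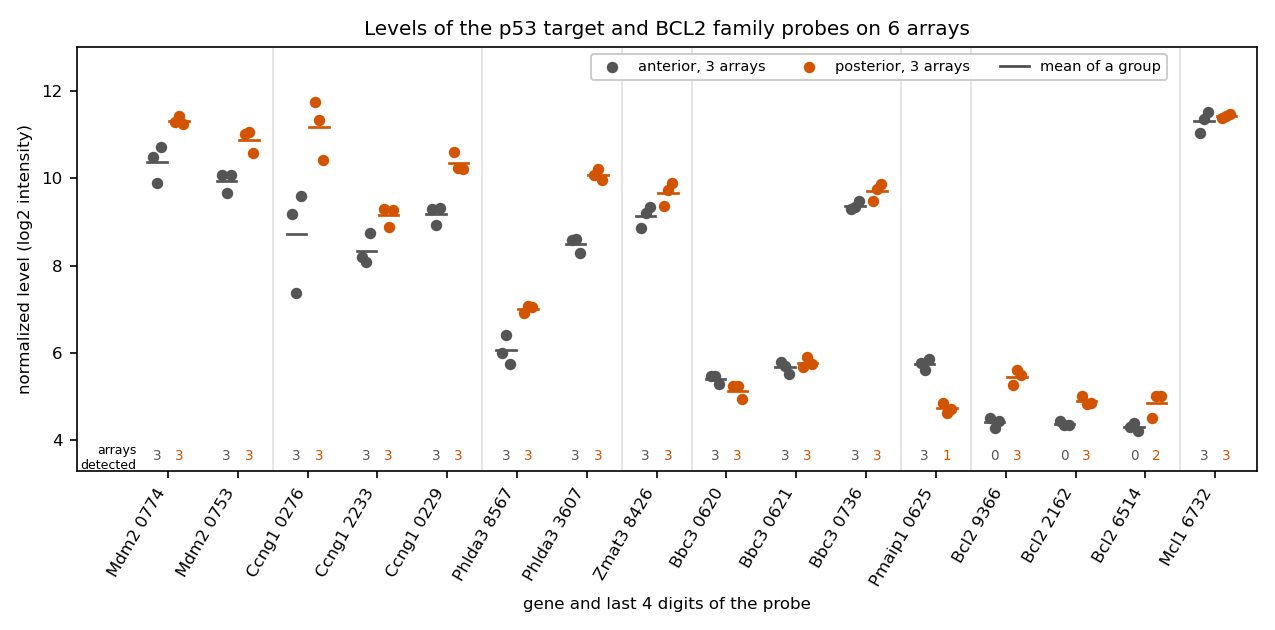
Normalized log2 intensity of each named member probe (x axis: gene and last 4 digits of the probe) on the 3 anterior arrays (grey) and the 3 posterior arrays (orange), with the mean of each group as a line and the number of arrays that detected the probe at the foot. All probes of Mdm2, Ccng1, Phlda3 and Zmat3 have every posterior array above every anterior one, and the 3 Bcl2 probes were detected on no anterior array.

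Mdm2 had 2 probes. On its brighter probe, ILMN_1250774, Mdm2 lay at 10.49, 9.88 and 10.71 (log2 intensity) on the anterior arrays and at 11.29, 11.43 and 11.23 on the posterior arrays. The groups did not overlap, which was also true of 54% of all tested probes. The Mdm2 difference was 0.95 (log2, SE 0.21, adjusted p = 0.0069 in the limma fit), or 1.94-fold. Its other probe, ILMN_2850753, went from 10.07, 9.67 and 10.08 in anterior to 11.01, 11.05 and 10.57 in posterior, a log2 difference of 0.94 (SE 0.19, adjusted p = 0.00389). The probes of Mdm2 thus gave nearly the same size. Without anterior replicate 2, the lowest array on both, the differences of Mdm2 were 0.70 and 0.78.

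Ccng1 encodes cyclin G1, which brings the phosphatase PP2A to MDM2 and so takes part in the feedback on p53. It had the largest difference among the members, and its 3 probes disagreed in size. On the brightest Ccng1 probe, ILMN_2500276, the anterior arrays gave 9.18, 7.38 and 9.59 (log2 intensity) and the posterior arrays 11.75, 11.33 and 10.42. Anterior replicate 2 was far below the other anterior arrays here, and the posterior arrays also spread over more than 1 log2 unit. The difference of this Ccng1 probe was 2.45 (log2, SE 0.55, adjusted p = 0.00734), or 5.46-fold, with a 95% interval from 1.19 to 3.71. Without anterior replicate 2 it was 1.76, or 3.38-fold, and with the mean of the Ccng1 probes it was 1.47, or 2.78-fold.

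The other probes of Ccng1 were tighter. Probe ILMN_2710229 of Ccng1 read 9.29, 8.94 and 9.32 in anterior and 10.60, 10.22 and 10.22 in posterior, a log2 difference of 1.16 (SE 0.17, adjusted p = 0.000856). Probe ILMN_2702233 of Ccng1 read 8.19, 8.09 and 8.75 in anterior and 9.29, 8.89 and 9.27 in posterior, a log2 difference of 0.81 (SE 0.21, adjusted p = 0.0126). Leaving out anterior replicate 1 ended its call (adjusted p = 0.0528). All 3 Ccng1 probes placed every posterior array above every anterior array. The size of the rise therefore ran from 1.75-fold to 5.46-fold, depending on the probe.

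Phlda3 encodes a small protein with a pleckstrin homology domain that hinders the membrane binding of AKT, a kinase that promotes survival. On its brighter probe, ILMN_2923607, Phlda3 lay at 8.59, 8.60 and 8.28 on the anterior arrays and at 10.08, 10.21 and 9.96 on the posterior arrays. These are narrow groups far apart, and the difference of Phlda3 was 1.59 (log2, SE 0.15, adjusted p = 7.11e-05), or 3.02-fold. Its dimmer probe, ILMN_2628567, lay at 6.01, 6.42 and 5.75 in anterior and at 6.91, 7.07 and 7.06 in posterior, a log2 difference of 0.95 (SE 0.18, adjusted p = 0.00345). In the authors' deposited log2 values, which carry no background correction, the difference of this dim Phlda3 probe was 0.63, and that of the brighter one 1.48.

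Zmat3 encodes a zinc finger protein that binds RNA and regulates splicing. Its only probe, ILMN_2418426, read 8.85, 9.20 and 9.34 in anterior and 9.37, 9.72 and 9.89 in posterior. The groups of Zmat3 did not overlap, but by a narrow margin. Its difference of 0.53 (log2, SE 0.19, adjusted p = 0.0504) lay just outside the threshold. Among 15 other settings Zmat3 passed as higher in 9, with adjusted p between 0.0143 and 0.173 over all of them.

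**Figure D2:**
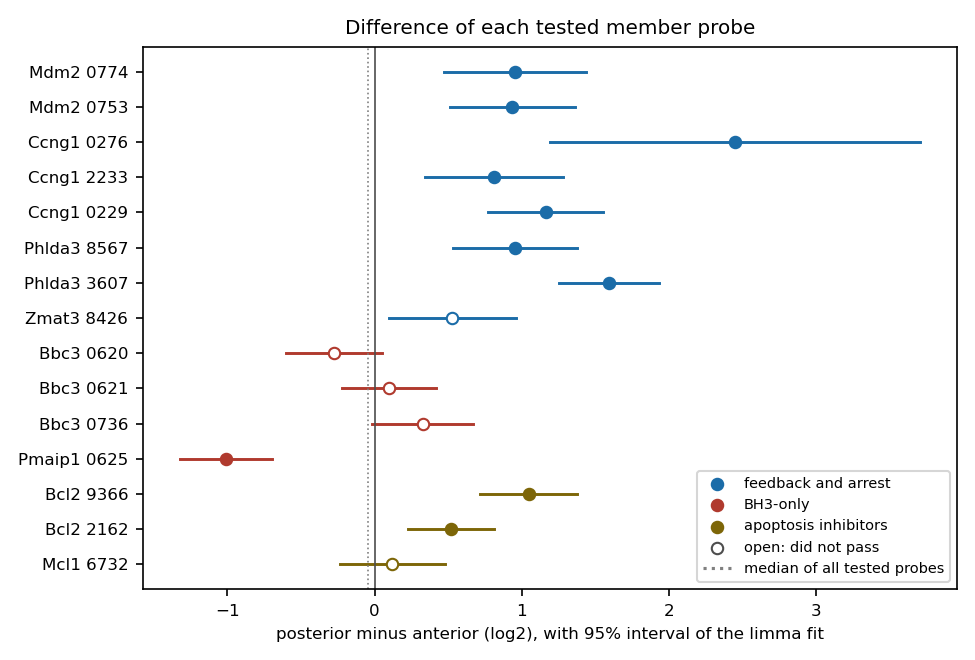
Posterior minus anterior difference (log2, x axis) of each of the 15 tested member probes, with the 95% interval of the limma fit. Filled points passed the adjusted p of 0.05, colours mark the role of the gene, and the dotted line is the median of all tested probes, at -0.04. The 7 filled feedback and arrest probes lie between 0.81 and 2.45, and Pmaip1, detected on 1 of 3 posterior arrays, lies at -1.01.

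The start regions of the feedback genes that rose are shown because p53 acts on such genes by binding DNA, and they let a reader see which of them carry its motif near the start. The p53 decamer consensus, a motif of 10 letters that reads the same on both strands, was searched in 32851 RefSeq windows of build GRCm38.p6, each from 250 bases before to 50 after a gene start. It was present in 8.36% of windows. A pair of decamers with at most 1 mismatch in its 20 letters, and with 0 to 13 bases between, was present in 1.09%. Windows of 8 member genes were searched, and those of 4 genes held a decamer (Bax, Ccng1, Mdm2 and Trp53). Among these, the windows of Ccng1 and of the cell death gene Bax held a pair with 1 mismatch. The Bax pair starts 212 bases before the gene start, with 1 base between, and its window is not printed. The windows are given 5′ to 3′ on the strand of the gene, Ccng1 at chr11:40755237-40755536 (minus strand), Mdm2 at chr10:117710709-117711008 (minus strand) and Phlda3 at chr1:135765835-135766134 (plus strand). Cdkn1a at chr17:29090729-29091028 (plus strand), the first of its 2 RefSeq windows, is added as a well known arrest target. Its other window holds no decamer. Capitals mark the pair with the fewest mismatches, where these are at most 1, or else a single exact decamer.
Ccng1: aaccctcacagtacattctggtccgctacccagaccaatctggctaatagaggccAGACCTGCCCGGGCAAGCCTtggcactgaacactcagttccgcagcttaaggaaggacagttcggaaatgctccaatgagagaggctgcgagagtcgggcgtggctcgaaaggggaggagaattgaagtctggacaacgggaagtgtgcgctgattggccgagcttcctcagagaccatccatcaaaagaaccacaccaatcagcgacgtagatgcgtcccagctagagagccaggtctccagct
Mdm2: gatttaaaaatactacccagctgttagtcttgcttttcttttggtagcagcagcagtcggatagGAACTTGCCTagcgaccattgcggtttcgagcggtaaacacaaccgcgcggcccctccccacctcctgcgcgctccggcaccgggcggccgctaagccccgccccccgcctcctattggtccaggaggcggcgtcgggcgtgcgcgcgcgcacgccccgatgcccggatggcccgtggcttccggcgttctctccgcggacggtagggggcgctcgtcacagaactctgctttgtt
Phlda3: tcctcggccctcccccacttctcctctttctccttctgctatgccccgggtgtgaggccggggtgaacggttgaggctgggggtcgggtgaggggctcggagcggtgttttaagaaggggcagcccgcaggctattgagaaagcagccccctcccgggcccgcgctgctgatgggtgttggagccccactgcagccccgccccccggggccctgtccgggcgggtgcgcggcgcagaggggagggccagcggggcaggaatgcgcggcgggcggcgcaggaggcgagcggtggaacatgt
Cdkn1a: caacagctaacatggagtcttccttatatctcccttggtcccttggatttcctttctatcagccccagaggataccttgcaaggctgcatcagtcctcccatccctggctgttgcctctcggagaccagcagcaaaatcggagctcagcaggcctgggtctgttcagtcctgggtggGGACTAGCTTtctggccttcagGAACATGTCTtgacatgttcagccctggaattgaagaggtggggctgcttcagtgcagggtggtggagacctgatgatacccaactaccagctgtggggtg
The Ccng1 window holds adjacent decamers with 1 mismatch, starting 195 bases before the gene start. Mdm2 has a single decamer 186 bases before it, and Phlda3 has none. Cdkn1a has an exact pair with 12 bases between. An exact pair at any spacing from 0 to 13 bases was present in 0.0731% of windows. The 10 letters right after the second Cdkn1a decamer match the motif with 1 mismatch and are not marked. A match describes letters and not binding, and a window without one says nothing about sites elsewhere in the gene.

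Bbc3 encodes PUMA, a BH3-only protein that p53 induces to start cell death. No probe of Bbc3 passed. Its brightest probe, ILMN_2920736, read 9.31, 9.33 and 9.48 in anterior and 9.47, 9.76 and 9.87 in posterior. The Bbc3 groups overlapped, and the difference was 0.33 (log2, SE 0.15, adjusted p = 0.115), with a 95% interval from -0.02 to 0.67. Its dim probes lay on either side of 0. Probe ILMN_2690621 of Bbc3 had a difference of 0.10 (SE 0.14, adjusted p = 0.615) and probe ILMN_2690620 of -0.28 (SE 0.14, adjusted p = 0.158), the latter with every posterior array below every anterior one. With the mean of its 3 probes the difference of Bbc3 was 0.05. The interval of the brightest Bbc3 probe leaves out the 0.95 of Mdm2, but the difference between the genes was not tested.

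Pmaip1 encodes NOXA, a BH3-only protein that binds MCL1, and it was the only member called lower. Its probe, ILMN_2670625, was dim, with raw intensities of 90.8, 93.2 and 96.8 in anterior and 78.5, 67.2 and 69.5 in posterior. On the normalized scale Pmaip1 lay at 5.76, 5.62 and 5.86 in anterior and at 4.86, 4.63 and 4.72 in posterior, where 1 of 3 arrays detected it. The groups of Pmaip1 were narrow and did not overlap, and its difference was -1.01 (log2, SE 0.14, adjusted p = 0.000575). With 2 posterior arrays below detection, its size depends on how dim signals are treated, and no fold is given. Pmaip1 met the detection filter mainly through the anterior arrays, and so had little room to come out higher. In the authors' deposited log2 values the difference of Pmaip1 was -0.51, and it still passed (adjusted p = 0.0021).

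Bcl2 encodes the protector of the mitochondrial membrane after which the family is named. No anterior array detected any of its 3 probes. On probe ILMN_1249366 Bcl2 lay at 5.28, 5.60 and 5.50 on the posterior arrays, all detected, against 4.51, 4.28 and 4.45 in anterior, not well above background. From these Bcl2 values and the lowest detected signals, posterior was at least 1.55-fold higher. The bound was not tested, and the adjusted p of 0.00063 belongs to the limma difference, which used the undetected anterior values. Probe ILMN_2682162 of Bcl2 gave at least 1.05-fold (adjusted p = 0.0111 for its limma difference). It did not pass in the authors' deposited log2 values (adjusted p = 0.0752). Probe ILMN_2706514 of Bcl2, which was not tested, was detected on 2 of 3 posterior arrays. Since Bcl2 entered the test only through the posterior arrays, it could hardly have come out lower, and its call adds no independent support for a direction. With any 1 posterior array left out, no Bcl2 probe met the detection filter.

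Mcl1 encodes a short-lived protector that NOXA binds. On its probe, ILMN_1216732, Mcl1 was bright in both groups, at 11.04, 11.35 and 11.52 in anterior and 11.37, 11.43 and 11.47 in posterior. The Mcl1 groups overlapped, and the difference was 0.12 (log2, SE 0.16, adjusted p = 0.568), with a 95% interval from -0.23 to 0.48. Intervals of this width leave a change of the size of Mdm2 outside for Mcl1, and smaller changes of either sign inside.

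Further targets of p53 in arrest, repair and feedback were called about as often in each direction as all genes. Of 24 listed genes 23 were tested, and 6 were higher, 6 lower and 11 did not pass, against 25.9% higher and 21.5% lower among all genes. Their median difference was 0.06 (log2), against 0.03 for all genes. Cdkn1a, which encodes the cell cycle inhibitor p21, lay at 7.62, 7.86 and 7.82 (log2 intensity) in anterior and at 9.27, 9.51 and 9.45 in posterior. That made Cdkn1a 3.12-fold higher (log2 1.64, SE 0.14, adjusted p = 4.2e-05), and its other probes gave 1.38 and 1.73. Plk2, a kinase of the cell cycle, was 2.42-fold higher (adjusted p = 0.00298). The lipid transfer gene Pltp was 3.62-fold lower (adjusted p = 6.36e-05), and the epoxide hydrolase gene Ephx1 2.31-fold lower (adjusted p = 0.00275). Ppm1d, whose phosphatase WIP1 turns p53 signalling off, was 1.68-fold higher (log2 0.75, SE 0.16, adjusted p = 0.0052), and Sesn1, a sestrin that restrains the growth kinase mTORC1, 2.15-fold (log2 1.10, SE 0.15, adjusted p = 0.000592). Ppm1d and Sesn1 were named after their values had been seen. So were Sesn2 (log2 -0.53), Plk3 (log2 -0.71), Sfn (log2 -1.16) and Tigar, which were lower. Tigar was detected on no posterior array and was at least 1.72-fold lower, and since it entered the test only through the anterior arrays it could hardly have come out higher.

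**Figure D3:**
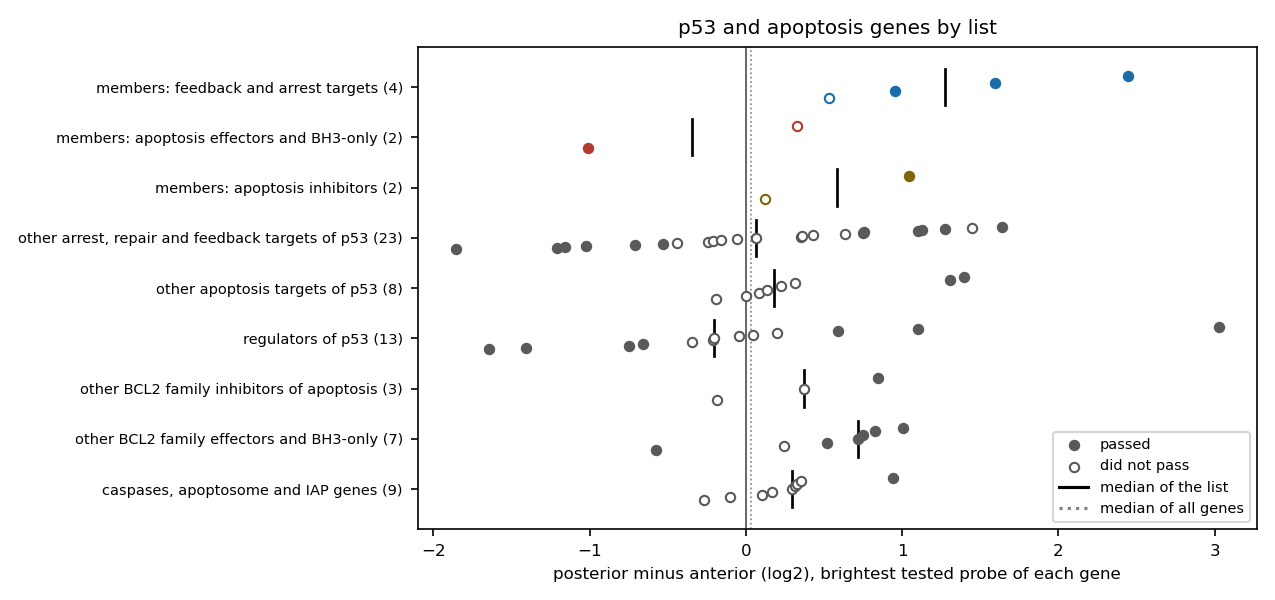
Posterior minus anterior difference (log2, x axis) of the brightest tested probe of each gene, by list (number of tested genes in brackets). Filled points passed, black bars are list medians and the dotted line is the median of all genes, at 0.03. The 3 filled feedback and arrest members lie between 0.95 and 2.45, and the 23 further targets of that kind spread from -1.86 to 1.64.

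Further cell death targets of p53 mostly did not pass. Of 8 tested genes 2 were higher, 0 were lower and 6 did not pass, so the share called higher was near the 25.9% of all genes. Apaf1, the scaffold of the apoptosome on which caspase 9 is activated, went from 8.44, 8.52 and 8.64 in anterior to 9.80, 9.96 and 9.77 in posterior, 2.48-fold higher (log2 1.31, SE 0.13, adjusted p = 0.000113). Casp6, an executioner caspase gene, was 2.63-fold higher (log2 1.39, SE 0.15, adjusted p = 0.000146). The groups of both did not overlap, as for 58.3% of all genes. Among 9 tested genes of caspases, apoptosome and their inhibitors, 1 was higher and 8 did not pass, against 47.4% of all genes called and 25.9% called higher. The 1 was Casp8, the caspase of death receptors, whose brightest probe, ILMN_1243876, no anterior array detected. On that probe Casp8 was at least 1.64-fold higher in posterior (adjusted p = 0.000553 for its limma difference, not for the bound). This probe entered the test only through the posterior arrays, so it could hardly have come out lower. With any 1 posterior array left out, it missed the detection filter and the list, counted by the brightest probes, had 0 calls. The other Casp8 probe, ILMN_3097868, was detected on 1 anterior and 3 posterior arrays. Its difference was 0.59 (log2, SE 0.19, adjusted p = 0.0342 in the limma fit). In the authors' deposited log2 values it did not pass (adjusted p = 0.102).

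Of 13 tested genes that act on p53, 3 were higher, 4 lower and 6 not past the threshold, near the shares of all genes (25.9% higher and 21.5% lower). Hipk2, a kinase that phosphorylates p53, was 8.15-fold higher on its brightest probe (log2 3.03, SE 0.33, adjusted p = 0.000157). The probes of Hipk2 disagreed, with differences of 0.95 and -0.42 on the other two, the latter not past the threshold. Cdkn2a, the locus of p16 and of ARF, which sequesters MDM2, was 2.14-fold higher (log2 1.10, SE 0.20, adjusted p = 0.0029). Pml, which organizes the nuclear bodies where p53 is modified, was 3.12-fold lower (log2 -1.64, SE 0.13, adjusted p = 2.53e-05). Chek2, a kinase that activates p53 after DNA breaks, was 2.65-fold lower (log2 -1.40, SE 0.16, adjusted p = 0.000206).

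Of 7 other tested members of the BCL2 family that promote death, 5 rose, 1 fell and 1 missed the threshold, against 25.9% higher and 21.5% lower among all genes. Their median difference was 0.72 (log2), against 0.03 for all genes. With no filter on detection 3 passed as higher and 1 as lower. The BH3-only genes Bik, Bmf and Bad were 2.01-fold, 1.78-fold and 1.68-fold higher, and Bok, an effector related to BAX, 1.65-fold. For Bik the arrays gave 6.30, 5.98 and 6.29 in anterior and 7.35, 7.11 and 7.13 in posterior (adjusted p = 0.000914). The gene that was lower, Bid, whose protein links death receptors to mitochondria, was named after its value had been seen (log2 -0.58, SE 0.15, adjusted p = 0.0131). Among 3 tested inhibitors 1 was higher, a share near the 25.9% of all genes, and 2 were with array weights. The 1 was Bcl2l1, which encodes BCL-XL. On its brightest probe it lay at 6.21, 6.46 and 6.28 in anterior and at 7.10, 7.20 and 7.17 in posterior. That was 1.80-fold higher (log2 0.85, SE 0.13, adjusted p = 0.00122). Its dimmer probes had log2 differences of 0.51 and 0.59 and did not pass (adjusted p = 0.0594 and 0.0539).

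The genes most like Ccng1 and Pmaip1 over the 6 arrays were sought among the 9907 other tested genes, by the distance between levels centred on each gene's mean. Nearest to Ccng1 were Bmpr2 (distance 0.91 log2 units), Purb (0.94) and Ttc3 (1.10). Bmpr2, Purb and Ttc3 also had their lowest level on anterior replicate 2. Nearest to Pmaip1 were Slc25a5 (0.13), Rec114 (0.16) and Mapk1ip1 (0.17). With 6 arrays in 2 groups, such likeness mostly restates the difference between the groups.

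**Figure D4:**
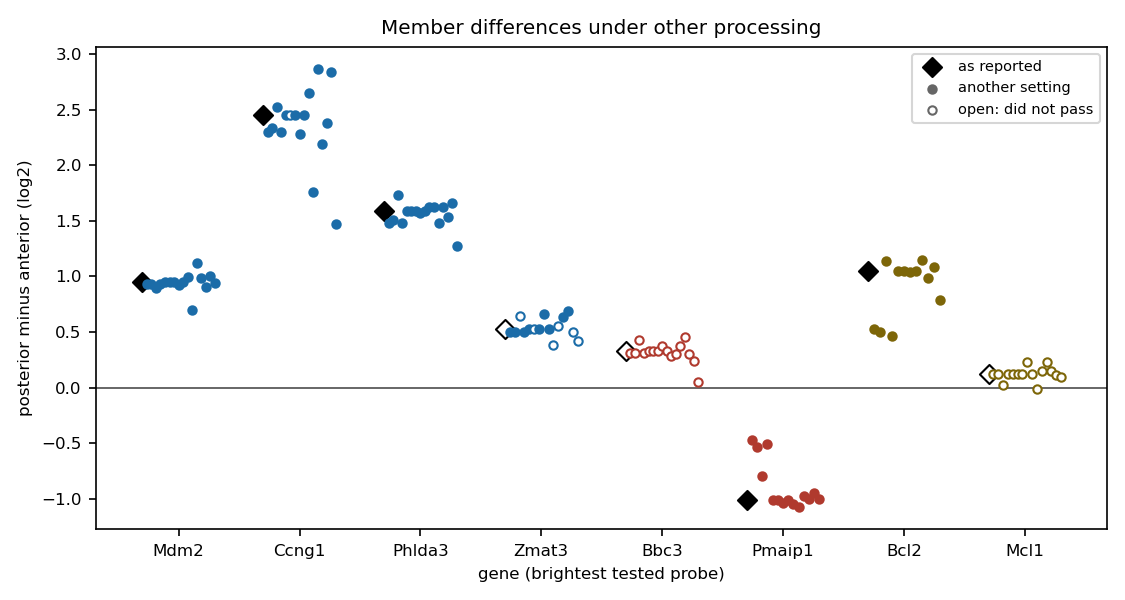
Posterior minus anterior difference (log2, y axis) of the brightest tested probe of each of 8 member genes, as reported (diamond) and under every other setting run (circles), with open symbols where the adjusted p was not under 0.05. Ccng1 runs from 1.47 to 2.87, Pmaip1 from -1.08 to -0.47 and Mcl1 from -0.01 to 0.23.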

How the data were processed

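Total RNA of 6 samples was read on 1-colour Illumina bead arrays. Per the file headers, the deposited table holds an intensity for each probe and array beside a detection p-value. These intensities were neither background subtracted nor normalized. The authors' deposited log2 values equal quantile-normalized log2 intensities to within 5e-09 and cover the 18312 probes with a detection p under 0.01 on at least 1 array. Limma appears in the submitters' processing notes with no version. Here neqc of limma 3.58.1 (R 4.3.3) corrected the background, added an offset of 16, took log2 and applied quantile normalization. The 18242 probes detected (p under 0.05) on at least 3 of 6 arrays were fitted with lmFit and eBayes, with Benjamini-Hochberg adjustment over all of them, and tested on simulated data first. Differences are posterior minus anterior, and the offset makes those of dim probes smaller. The number of arrays limits the precision.

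Symbols came from the platform annotation, with 15550 probes under 1 symbol, 9 under several and 2753 under none. RefSeq held the gene identifiers of 15537, and 0 symbols changed. A gene is represented by its brightest tested probe. Of each further list the 4 largest changes past the threshold are named, and Cdkn1a. For a probe that no array of a group detected, the fold is a bound against the lowest detected signal of each array, 4.70 to 4.91 (log2). Members, lists and this rule were chosen with earlier results of these data known. Alternatives were another background correction, offset, scaling, filter, variance model, array weights, the replicate number as a block, the authors' values, the mean of a gene's probes and each array left out. Plots used Python 3.11.15 and matplotlib 3.10.9.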

Additional observations from a re-analysis of the deposited data

How the results depend on the processing

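The count of member probes past the threshold was 10 as reported and between 8 and 11 under 15 alternatives, with 9 under median scaling and 8 without a detection filter. Of 221 differences of member probes under alternatives, 205 kept their direction and their side of the threshold, 6 lost the call, 9 gained it and 1 turned. The gains were all of Zmat3. The lost calls were those of Ccng1 (probes ILMN_2500276 and ILMN_2702233 with no filter on detection, the latter also without anterior replicate 1) and of Bcl2 (ILMN_2682162 with an offset of 50, with median scaling and in the authors' values). Mcl1, not called in any setting, turned to -0.013 without anterior replicate 1, and its values with 1 array left out ran up to 0.232. Over all tested probes 7762 passed, and between 5157 and 7397 when 1 array was left out, with the lowest count, 5157, without posterior replicate 2. Median scaling shifted the median difference over all probes by 0.17 (log2) and made 69.5% of the calls higher, against 49.8% as reported. Relative to the median of all probes the member median was then 0.77, against 0.85 as reported. That relative median was 0.55 without background correction and 0.53 both with an offset of 50 and in the authors' values. Among probes detected on all 6 arrays it was 0.97. Without background correction the differences of Pmaip1, Bcl2 (ILMN_1249366) and Phlda3 (ILMN_2628567) were -0.47, 0.53 and 0.63. Leaving out any posterior array took both tested Bcl2 probes out of the detection filter, so no value is given there. Deviations of same-numbered samples correlated at 0.29, 0.16 and -0.08. Deviations within groups this small cannot settle whether same-numbered samples were handled together. With the replicate block 11 member probes and 7827 of all probes passed, Zmat3 among them (adjusted p = 0.0167). Signal over background limits Pmaip1, Bcl2 and the dim probes of Bbc3.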

Other observations

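The low level on anterior replicate 2 was not particular to Ccng1 among the genes followed. Of 71 tested genes in the p53 and cell death lists, 8 spanned more than 1 log2 unit within anterior, and all 8 were lowest on that array. For Trp53inp1, a p53 target that takes part in autophagy and cell death, the anterior arrays gave 9.23, 7.03 and 9.64 and the posterior arrays 10.89, 10.29 and 9.08. Trp53inp1 did not pass (log2 1.45, SE 0.67, adjusted p = 0.118). For Atm, the kinase that signals DNA breaks to p53, the anterior arrays gave 8.27, 6.76 and 8.96 and the posterior arrays 8.97, 7.88 and 7.29 (adjusted p = 0.955). The others were Rrm2b, Polk, Chek1, Prkdc and Birc2. The posterior arrays fell in order from replicate 1 to replicate 3 on the brightest probes of Ccng1, Trp53inp1, Atm, Rrm2b and Birc2. For Polk and Prkdc replicate 1 was highest without that order, and for Chek1 replicate 2 was highest. These genes were named after their values had been seen.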
